A study of Mus musculus with 8 samples.

Results

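The GATA factors Gata1 to Gata6 and their Zfpm cofactors Zfpm1 and Zfpm2 were taken by symbol from the deposited table, which gave 8 of its 34536 gene rows. RNA was sequenced from mouse cells isolated by fluorescence-activated sorting from embryoid bodies, in which pluripotent stem cells differentiate as clumps in culture. Libraries A, C, E and G, 4 in all, are labelled endocardial, the lining of the heart. The 4 libraries B, D, F and H are labelled endothelial, the lining of vessels. Endocardial cells and endothelial cells are used below as the names that the labels give. Of 20 pan-endothelial markers, 17 were called higher in the endocardial group and 0 lower. Most pluripotency and epithelial markers had lower estimates in that group. No genotype, treatment or time is labelled for either group, and the sources used here give neither the sort markers nor the stem cell line nor the culture day. Nothing in the labels says that libraries of a group came from separate cultures, so the p-values rest on a spread between samples that may be technical. The question addressed was how the levels of these regulators differed between endocardial and endothelial cells, with the blood subgroup (Gata1, Gata2 and Gata3) set beside the cardiac subgroup (Gata4, Gata5 and Gata6).

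GATA factors are zinc finger proteins that bind the DNA letters after which they are named. Gata1, Gata2 and Gata3 are best known from blood: Gata1 drives red cell and megakaryocyte formation, Gata2 maintains blood progenitors and acts in endothelium, and Gata3 directs T cells. Gata4, Gata5 and Gata6 act in the heart and in endoderm, and Gata5 is known from the endocardium. Zfpm1 and Zfpm2, the Friend of GATA proteins, bind the amino-terminal zinc finger of GATA factors and bring in the NuRD repressor complex. Zfpm1 is needed for red cells and megakaryocytes, and Zfpm2 for heart and coronary vessel formation in the mouse.

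Gata2 and Zfpm1 were higher in endocardial than in endothelial cells, Gata2 by 4.07-fold and Zfpm1 by 2.06-fold. Gata1 had a 2.90-fold higher estimate that did not pass the test. Gata3 had nearly equal means, and Gata4, Gata5, Gata6 and Zfpm2 had estimates between 1.29-fold and 1.45-fold that did not pass. Thus 2 of the 8 genes were called higher and 0 lower at an adjusted p below 0.05 (edgeR quasi-likelihood test, Benjamini-Hochberg adjustment over 13817 tested genes). Of all tested genes, 2.58% were called in either direction and 1.42% higher. The endocardial and endothelial libraries did not overlap for 2 of the 8 genes, both higher in endocardial cells, against 9.76% of all tested genes, 4.42% higher and 5.33% lower. A log2 fold change above 0 was found for 7 of the 8, against 52.5% of all tested genes, and the median was 0.47, against 0.01 for all tested genes. That median was 0.77 without endothelial library B and 0.28 without F. Levels are given in CPM, the reads of a gene relative to its library total (6677667 to 11369363 reads) after TMM scaling.

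**Figure D1:**
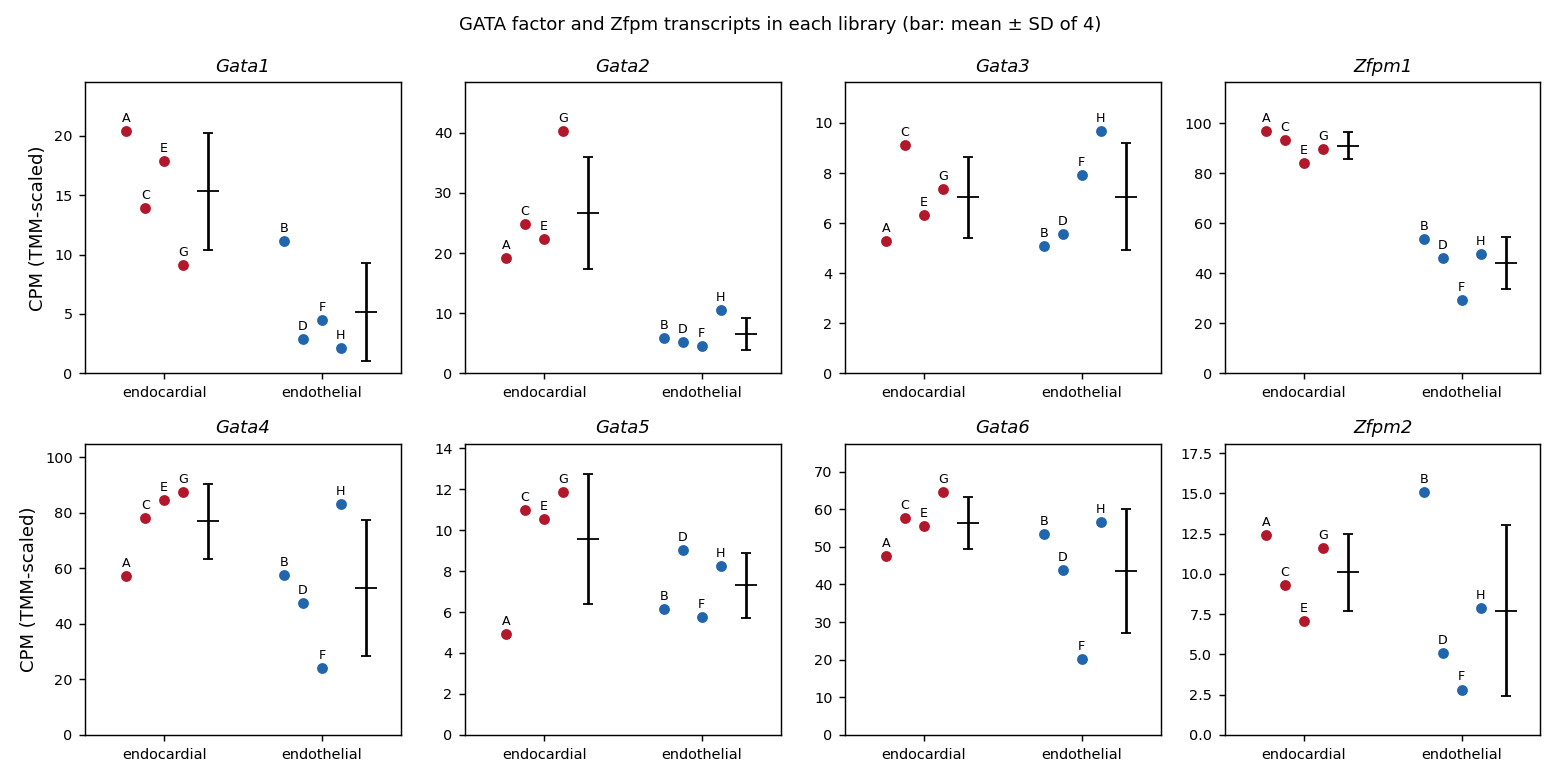
TMM-scaled CPM (y axis, from 0) of each of the 8 genes in each library, with endocardial libraries in red and endothelial libraries in blue; bars give the mean and SD of 4 libraries. Gata2 and Zfpm1 are the only panels of the 8 in which the groups do not overlap, and in the Gata1 panel endothelial library B stands at 11.1 CPM among endocardial values of 9.11 to 20.4 CPM.

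The start regions of the genes that moved, and of Gata1, are shown because these genes differ in base composition there. Each window runs from 250 bases before to 50 bases after a transcription start and is written 5′ to 3′ on the gene's strand, with CG dinucleotides in capitals (RefSeq, GRCm38.p6). The Gata1 window is chrX:7967861-7968160 on the minus strand. The Gata2 windows are chr6:88193641-88193940 and chr6:88198414-88198713 on the plus strand, at different starts of the gene. The Zfpm1 window is chr8:122281891-122282190 on the plus strand.
Gata1: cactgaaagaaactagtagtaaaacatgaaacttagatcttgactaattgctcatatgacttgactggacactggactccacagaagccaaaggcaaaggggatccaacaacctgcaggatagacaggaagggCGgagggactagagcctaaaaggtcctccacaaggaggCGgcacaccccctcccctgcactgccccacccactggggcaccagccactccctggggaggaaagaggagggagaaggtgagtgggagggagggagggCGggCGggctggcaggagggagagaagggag
Gata2, upstream start: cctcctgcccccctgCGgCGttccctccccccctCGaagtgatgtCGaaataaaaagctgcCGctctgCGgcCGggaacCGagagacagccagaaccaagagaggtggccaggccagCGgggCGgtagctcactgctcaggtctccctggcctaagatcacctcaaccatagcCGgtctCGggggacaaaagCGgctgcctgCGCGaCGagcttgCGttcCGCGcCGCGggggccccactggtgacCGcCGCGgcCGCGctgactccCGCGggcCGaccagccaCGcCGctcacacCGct
Gata2, downstream start: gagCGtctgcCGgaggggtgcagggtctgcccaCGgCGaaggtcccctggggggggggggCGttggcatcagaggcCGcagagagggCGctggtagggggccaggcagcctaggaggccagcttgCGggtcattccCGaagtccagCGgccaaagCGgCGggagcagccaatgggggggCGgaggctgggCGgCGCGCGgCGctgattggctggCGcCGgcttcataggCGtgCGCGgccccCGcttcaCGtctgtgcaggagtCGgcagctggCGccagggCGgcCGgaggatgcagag
Zfpm1: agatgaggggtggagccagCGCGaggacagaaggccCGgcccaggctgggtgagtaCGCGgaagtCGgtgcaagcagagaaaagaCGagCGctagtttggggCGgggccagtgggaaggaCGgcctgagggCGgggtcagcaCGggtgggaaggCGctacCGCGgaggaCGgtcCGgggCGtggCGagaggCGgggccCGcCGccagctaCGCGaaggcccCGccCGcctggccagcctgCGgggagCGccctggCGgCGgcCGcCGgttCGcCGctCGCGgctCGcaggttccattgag
The Gata1 window held 4 CG dinucleotides, an observed-to-expected ratio of 0.167, which was at the 23.7th percentile of 32851 windows in the table. The Gata2 windows held 32 and 29 CG dinucleotides, with ratios of 0.9 and 0.76, and the Zfpm1 window held 37, with a ratio of 0.956. The median ratio over the table was 0.384. The letters GATA, searched on both strands, occurred once in the Gata1 window, starting at its base 119, and in neither Gata2 window nor the Zfpm1 window; 57.9% of all windows hold them. None of these 4 windows held the longer word formed by A or T, then GATA, then A or G (such as AGATAA), on either strand, which is in 29.8% of all windows. The windows matched for Gata3 and Gata5 had ratios of 0.658 and 0.714. Windows were found for 5 of the 8 genes.

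Gata2, on chromosome 6 (88193891 to 88207032, plus strand, GRCm38), had 19.2, 24.8, 22.3 and 40.3 CPM in endocardial libraries A, C, E and G. It had 5.88, 5.26, 4.49 and 10.5 CPM in endothelial libraries B, D, F and H. Every endocardial library lay above every endothelial one, and the highest values were in G and in H. The means were 26.6 ± 9.38 CPM in endocardial cells and 6.54 ± 2.72 CPM in endothelial cells (SD, n = 4 each). Gata2 rose by 2.03 on the log2 scale (SE 0.31, edgeR adjusted p = 0.00975), with a 95% interval of 2.51-fold to 6.61-fold. It was called in all 16 alternative fits, at log2 fold changes between 1.77 and 2.34. The range of adjusted p over those fits was 7.86e-08 to 0.0432.

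The sum over 20 pan-endothelial markers, like Gata2, was higher in every endocardial library than in every endothelial one. It was 1927, 1809, 1698 and 2122 CPM in endocardial libraries A, C, E and G. In endothelial libraries B, D, F and H it was 780, 769, 495 and 942 CPM. The endothelial libraries stood in the same order for both. Endocardial library A had the lowest Gata2 of its group but a marker sum above C and E. No pan-endothelial marker was at 0 everywhere, and 17 of the 20 were called higher, against 1.42% of all tested genes. Cdh5, the adherens junction cadherin of endothelium, was at 132 ± 17.3 CPM in endocardial cells and 16.1 ± 1.11 CPM in endothelial cells (SD, n = 4 each). In bulk samples, fewer cells of a type and less RNA per cell cannot be told apart. The part of the endothelial marker level in the Gata2 and Zfpm1 differences was not tested. Among 12 endocardial markers, 11 could be tested and 4 were called higher (Hapln1, Nfatc1, Plvap and Nrg1), and the summed level was 689 to 919 CPM in endocardial cells against 299 to 607 CPM in endothelial cells. Of the 11, 9 had a positive and 2 a negative log2 fold change. Without overlap 4 were higher and 1 was lower, against 4.42% and 5.33% of all tested genes. Their median log2 fold change was 0.46, against 2.25 for the pan-endothelial markers.

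Gata1, on the X chromosome (7959260 to 7978071, minus strand), had 20.4, 13.9, 17.9 and 9.11 CPM in endocardial libraries A, C, E and G. It had 11.1, 2.92, 4.49 and 2.15 CPM in endothelial libraries B, D, F and H. Endothelial library B lay above endocardial library G, so the groups overlapped, while the other endothelial libraries lay below all 4 endocardial ones. The lowest estimated count behind a value was 18, in library H. The means were 15.3 ± 4.92 CPM in endocardial cells and 5.18 ± 4.10 CPM in endothelial cells (SD, n = 4 each), and the log2 fold change of 1.54 (SE 0.48) was not called (edgeR adjusted p = 0.144). Its 95% interval was 1.38-fold to 6.09-fold. The call depended on the fit: Gata1 passed with DESeq2 (adjusted p = 0.0251), with limma voom (adjusted p = 0.0131) and without library B (edgeR adjusted p = 0.0134, log2 fold change 2.26). It also passed when A and B, C and D, E and F, and G and H were blocked together (edgeR adjusted p = 0.00625), a pairing that no label states. Over the 16 alternative fits, 4 called it.

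Markers of blood cells, like Gata1, were highest in A among endocardial and in B among endothelial libraries. The sum over 11 erythroid markers was 1544, 433, 783 and 624 CPM in endocardial libraries A, C, E and G, and 2645, 261, 263 and 396 CPM in endothelial libraries B, D, F and H. Library B was the highest of the 8, and none of the 11 was called. By edgeR 1 of the 11 had an unadjusted p below 0.05, against 14.6% of all tested genes. The sum over 12 megakaryocyte and mast cell markers was 106 to 365 CPM in endocardial cells and 38.4 to 244 CPM in endothelial cells, highest in A and B, with Tpsb2 and Fcer1a at 0 everywhere. Of the 5 that could be tested, none was called and 0 had an unadjusted p below 0.05. The part of blood cells in the Gata1 level was not tested.

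**Figure D2:**
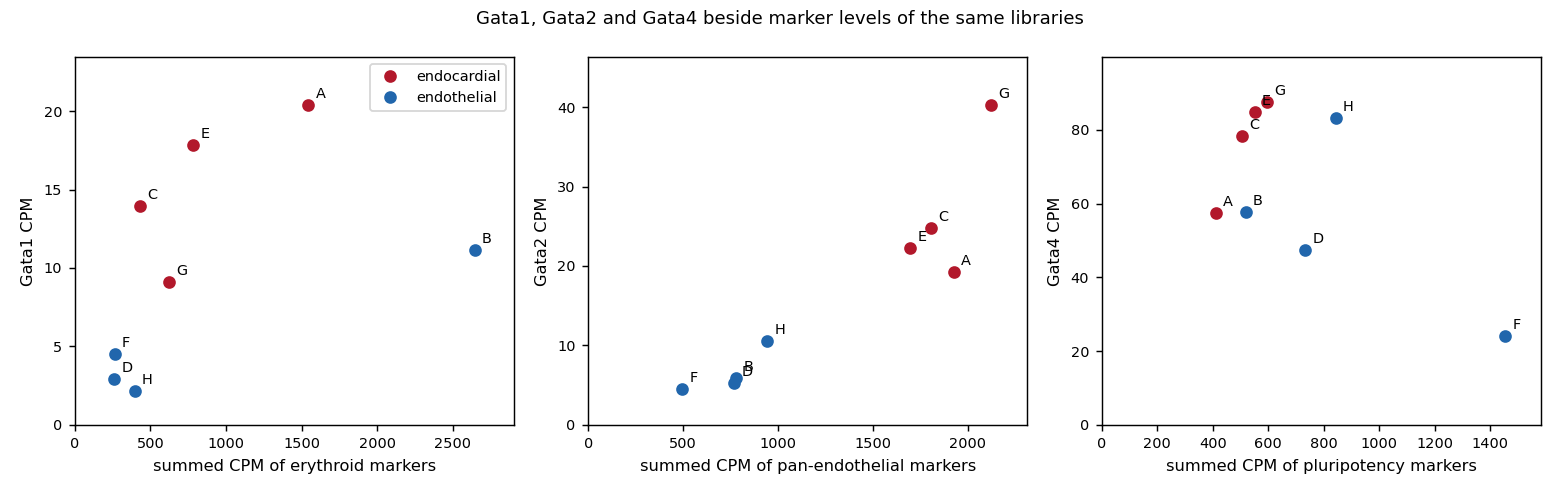
CPM of Gata1, Gata2 and Gata4 (y axes, from 0) against the summed CPM of erythroid, pan-endothelial and pluripotency markers (x axes, from 0) in the same library, red for endocardial and blue for endothelial, with the library letter beside each point. Library B has the highest erythroid sum (2645 CPM) with 11.1 CPM of Gata1, library G the highest pan-endothelial sum (2122 CPM) with 40.3 CPM of Gata2, and library F the highest pluripotency sum (1454 CPM) with 24.0 CPM of Gata4.

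Gata3, on chromosome 2 (9857078 to 9890034, minus strand), had 5.29, 9.11, 6.34 and 7.36 CPM in endocardial libraries A, C, E and G, and 5.08, 5.55, 7.93 and 9.69 CPM in endothelial libraries B, D, F and H. Both groups spanned nearly the same range, with the top value in H. The means were 7.03 ± 1.62 CPM in endocardial cells and 7.06 ± 2.15 CPM in endothelial cells (SD, n = 4 each). The fold was between 0.654 and 1.52 at 95% (edgeR adjusted p = 0.996), and the sign of its log2 fold change differed between fits. Gata3 shares exonic bases with 9230102O04Rik on its own strand (77 bases) and with the antisense model Gm13256 (155 bases), and the sources used here do not give whether the counting used strand.

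Zfpm1, on chromosome 8 (122282141 to 122337251, plus strand), had 97.0, 93.3, 84.2 and 89.8 CPM in endocardial libraries A, C, E and G. It had 53.8, 46.1, 29.5 and 47.6 CPM in endothelial libraries B, D, F and H. Every endocardial value was above every endothelial one, the endocardial values lay close together, and F was the lowest. The means were 91.1 ± 5.42 CPM in endocardial cells and 44.3 ± 10.4 CPM in endothelial cells (SD, n = 4 each). Zfpm1 rose by 1.04 on the log2 scale (SE 0.17, edgeR adjusted p = 0.0114), with a 95% interval of 1.59-fold to 2.66-fold. It was called in all 16 alternative fits, at log2 fold changes of 0.87 to 1.16 and adjusted p of 2.98e-06 to 0.0487.

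Zfpm2, on chromosome 15 (40655035 to 41104592, plus strand), had 12.4, 9.32, 7.10 and 11.6 CPM in endocardial libraries A, C, E and G, and 15.1, 5.11, 2.82 and 7.89 CPM in endothelial libraries B, D, F and H. The highest and the lowest of the 8 values were both endothelial, in B and in F. The means were 10.1 ± 2.39 CPM in endocardial cells and 7.72 ± 5.32 CPM in endothelial cells (SD, n = 4 each), and the fold lay between 0.658 and 2.55 at 95% (edgeR adjusted p = 0.781). Single libraries set the estimate of 0.37 on the log2 scale, which was 0.95 without B and 0.07 without F. Per kilobase of transcript, Zfpm1 stood 13.2 to 20.3 times above Zfpm2 in endocardial libraries and 6.10 to 17.9 times above it in endothelial libraries.

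Gata4, on chromosome 14 (63198922 to 63271692, minus strand), had 57.3, 78.3, 84.7 and 87.5 CPM in endocardial libraries A, C, E and G, and 57.6, 47.5, 24.0 and 83.2 CPM in endothelial libraries B, D, F and H. The groups overlapped, with H among the high endocardial values, A among the endothelial ones and F far below the rest. The means were 77.0 ± 13.6 CPM in endocardial cells and 53.1 ± 24.5 CPM in endothelial cells (SD, n = 4 each), and the fold lay between 0.890 and 2.36 at 95% (edgeR adjusted p = 0.507). Its log2 fold change of 0.54 was 0.28 without library F and 0.83 without H, the ends of its range when a library was left out, and it was called in none of those 8 fits.

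Gata6, on chromosome 18 (11052064 to 11085635, plus strand), had 47.6, 57.8, 55.5 and 64.5 CPM in endocardial libraries A, C, E and G, and 53.5, 43.8, 20.2 and 56.7 CPM in endothelial libraries B, D, F and H. Library F was again the lowest, and the other 7 lay between 43.8 and 64.5 CPM. The means were 56.4 ± 6.95 CPM in endocardial cells and 43.6 ± 16.5 CPM in endothelial cells (SD, n = 4 each), with a fold between 0.849 and 1.97 at 95% (edgeR adjusted p = 0.614). The log2 fold change of 0.37 was 0.12 without F. The ratio of Gata4 to Gata6 per kilobase was 1.34 to 1.70 in endocardial libraries and 1.20 to 1.63 in endothelial libraries.

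Gata5, on chromosome 2 (180325133 to 180334699, minus strand), had 4.91, 11.0, 10.5 and 11.9 CPM in endocardial libraries A, C, E and G, and 6.15, 9.05, 5.74 and 8.25 CPM in endothelial libraries B, D, F and H. Endocardial libraries C, E and G lay above all endothelial ones, and A below them. The means were 9.57 ± 3.16 CPM in endocardial cells and 7.30 ± 1.61 CPM in endothelial cells (SD, n = 4 each), with a fold between 0.841 and 2.07 at 95% (edgeR adjusted p = 0.613). Its log2 fold change of 0.40 was 0.28 to 0.59 when a library was left out, the highest without A. Gata5 shares 258 exonic bases with its antisense model Gata5os, and Gata6 shares 93 with 1010001N08Rik.

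Library F was the lowest of the 8 libraries for Gata4 and Gata6. It was also the lowest for Gata2 (4.49 CPM), Zfpm1 (29.5 CPM) and Zfpm2 (2.82 CPM). This library had the highest sum over 14 pluripotency markers, 1454 CPM. The sums were 411, 505, 551 and 597 CPM in endocardial libraries A, C, E and G, and 519, 734 and 843 CPM in the other endothelial libraries B, D and H. Of these markers 2 (Tdgf1 and Fgf4) were called lower in endocardial cells, against 1.16% of all tested genes. None of the 14 was at 0 everywhere. Most of the list was lower there: 13 of the 14 log2 fold changes were negative, with a median of -2.76. By edgeR 11 of the 14 had an unadjusted p below 0.05, against 14.6% of all tested genes. The groups did not overlap for 6 of them, all lower, against 5.33% of all tested genes. The 16 cardiomyocyte markers summed to 260 to 494 CPM in endocardial cells and 215 to 393 CPM in endothelial cells, with none of 14 called and 6 at an unadjusted p below 0.05. The 13 endoderm markers summed to 23.5 to 63.6 CPM in endocardial cells and 41.9 to 101 CPM in endothelial cells, with F again the highest. The part of these other cells in the levels of Gata4, Gata6, Gata2, Zfpm1 and Zfpm2 was not tested.

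**Figure D3:**
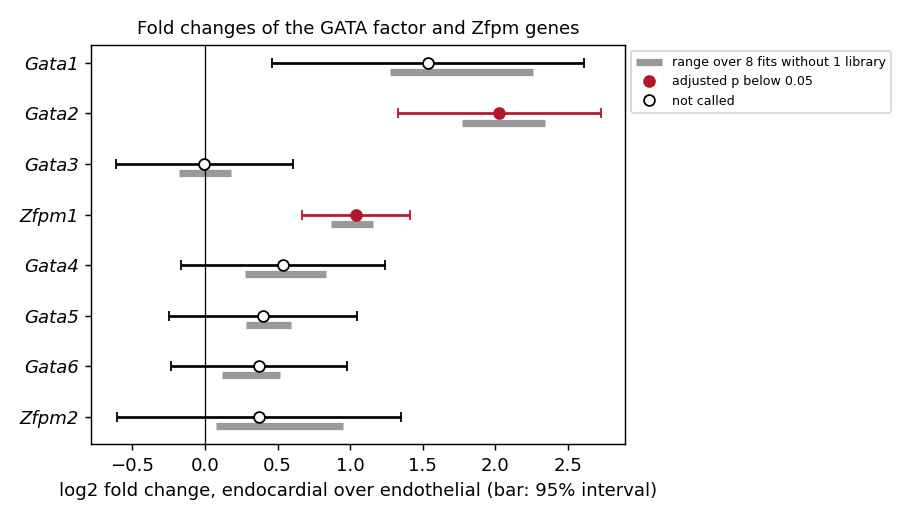
Log2 fold change (x axis) of each gene, endocardial over endothelial, with its 95% interval as a thin bar and the range over 8 fits that each leave out 1 library as a grey bar. The intervals of Gata2 and Zfpm1 (filled) and of Gata1 (open) lie above 0, and those of the other 5 genes cross 0.

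Per kilobase of the longest annotated transcript, Zfpm1 was the most abundant of the 8 in endocardial cells, at 26.9 ± 1.60 CPM per kb, followed by Gata4 at 22.6 ± 4.01 and Gata6 at 14.9 ± 1.84 CPM per kb. Gata1 (8.05 ± 2.59) and Gata2 (7.46 ± 2.63 CPM per kb) came next. Gata5 (2.92 ± 0.964), Gata3 (2.19 ± 0.505) and Zfpm2 (1.74 ± 0.413 CPM per kb) were the lowest (SD, n = 4 throughout). In this order the ranges of neighbours overlapped except between Gata6 and Gata1 and between Gata2 and Gata5. In endothelial cells the order was Gata4 (15.6 ± 7.22 CPM per kb), Zfpm1 (13.1 ± 3.06) and Gata6 (11.5 ± 4.36), then Gata1 (2.72 ± 2.15), Gata5 (2.23 ± 0.490), Gata3 (2.20 ± 0.668), Gata2 (1.83 ± 0.761) and Zfpm2 (1.33 ± 0.919). The ranges of all neighbours overlapped there. Gata2 thus stood in place 5 in endocardial and in place 7 in endothelial cells. Per kilobase of coding sequence Zfpm1 was in place 3 in both groups, below Gata4 and Gata6. Other places moved too. By that measure Gata2 stood above Gata1 in both groups, in places 4 and 5 in endocardial cells and 6 and 7 in endothelial cells.

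The mean of the blood subgroup separated the groups and the mean of the cardiac subgroup did not. The blood mean rested on Gata2 and Gata1, with log2 fold changes of 2.03 and 1.54, while Gata3 was at -0.005. Of these genes only Gata2 was called, and Gata1 and Gata3 each overlapped between the groups. The mean log2 CPM of Gata1, Gata2 and Gata3 was 3.70, 3.90, 3.79 and 3.83 in endocardial libraries A, C, E and G, and 2.84, 2.21, 2.50 and 2.66 in endothelial libraries B, D, F and H. That of Gata4, Gata5 and Gata6 was 4.60, 5.21, 5.21 and 5.35 in endocardial libraries A, C, E and G, and 4.76, 4.75, 3.84 and 5.10 in endothelial libraries B, D, F and H. The blood values did not overlap and the cardiac values did. Of single tested genes, 4.42% lay higher in endocardial cells without overlap. Blood minus cardiac was -0.89, -1.32, -1.42 and -1.53 in endocardial libraries A, C, E and G, and -1.92, -2.54, -1.34 and -2.44 in endothelial libraries B, D, F and H. Only endothelial library F lay within the endocardial values. The mean of this difference was 0.77 higher in endocardial cells, and 0.61 to 1.01 higher when a library was left out. These subgroup values are a description with no test.

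In the pooled transcripts of the 6 GATA factors, counted per kilobase, Gata2 made up 11.1%, 11.8%, 10.3% and 17.4% in endocardial libraries A, C, E and G, and 3.92%, 4.46%, 6.21% and 6.01% in endothelial libraries B, D, F and H. These shares did not overlap. Gata4 was the most abundant of the 6 in every library, at 38.7% ± 2.86 in endocardial cells and 41.8% ± 6.22 in endothelial cells (SD, n = 4 each). Gata6 made up 24.3% to 26.3% in endocardial libraries and 26.4% to 35.0% in endothelial libraries, a lower share without overlap. A share also falls when other factors of the pool rise. In CPM Gata6 had the higher mean in endocardial cells, at 56.4 against 43.6 CPM in endothelial cells, and was not called. The blood subgroup together held 36.5%, 29.1%, 29.1% and 28.4% in endocardial libraries A, C, E and G, and 21.6%, 14.3%, 30.0% and 14.5% in endothelial libraries B, D, F and H, so that F again lay among the endocardial values. In F, Gata3 alone held 12.2%. The ratio of Gata4 to Gata2 per kilobase was lower in each endocardial library than in any endothelial library, where it was 5.62 to 10.3.

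**Figure D4:**
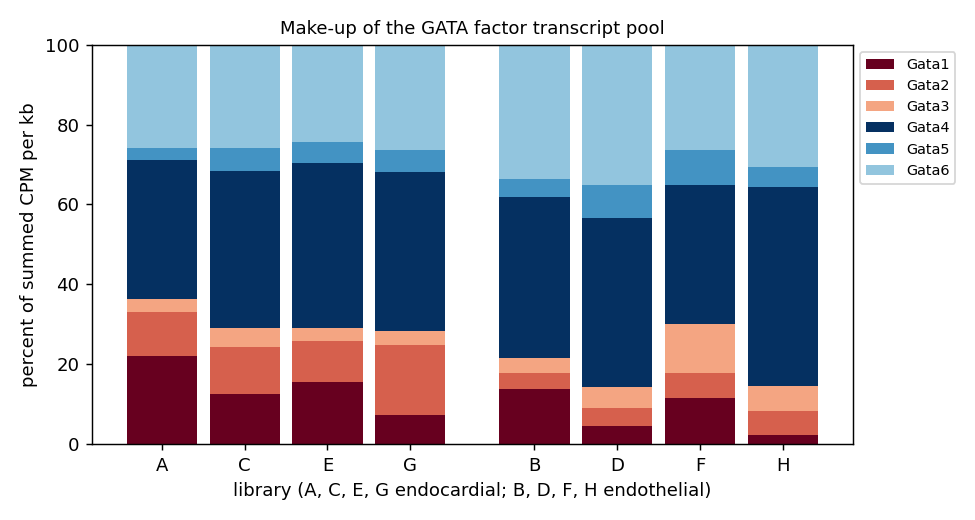
Percent of the summed CPM per kb of Gata1 to Gata6 (y axis, from 0) held by each factor in each library, blood factors in red tones and cardiac factors in blue tones, endocardial libraries left and endothelial libraries right. The Gata2 segment is 10.3% to 17.4% in endocardial libraries and 3.92% to 6.21% in endothelial libraries, and the Gata3 segment is widest in F, at 12.2%.

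The balance of Gata2 and Gata1 was close between C and D and between G and H, and less so between A and B and between E and F. Per kilobase, Gata2 over Gata1 was 0.502 in endocardial library A and 0.281 in endothelial library B, 0.949 in C and 0.959 in D, 0.664 in E and 0.533 in F, and 2.36 in G and 2.60 in H. Endocardial library A lay nearer to endothelial library F than to B. The endocardial range, 0.502 to 2.36, lay within the endothelial range, 0.281 to 2.60. Over all tested genes the deviations from the group means correlated at 0.555 between A and B, 0.324 between C and D, 0.337 between E and F, and 0.611 between G and H, and the sources used here do not give what these letters share.

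The factors that form complexes with Gata1, Gata2 and Gata3 in blood and endothelium rose in part. Of 19 such partners, 18 could be tested, and 6 were called higher and 0 lower (edgeR, adjusted p below 0.05), with a median log2 fold change of 1.52. Of all tested genes, 1.42% were called higher and 1.16% lower. Tal1, the basic helix-loop-helix factor that binds beside GATA factors, had 134, 109, 118 and 129 CPM in endocardial libraries A, C, E and G, and 42.4, 21.5, 13.5 and 19.1 CPM in endothelial libraries B, D, F and H, and rose by 2.34 on the log2 scale (SE 0.31). Lmo2, which bridges Tal1 and GATA factors, was at 35.1 ± 7.53 CPM in endocardial cells and 8.43 ± 2.62 CPM in endothelial cells (SD, n = 4 each) and rose by 2.05 (SE 0.25). The ETS factors Erg (2.82, SE 0.17) and Fli1 (1.89, SE 0.21) and the corepressor Cbfa2t3 (1.65, SE 0.26) also rose. Gfi1b, a transcriptional repressor that red cells and megakaryocytes need to develop, rose by 2.40 (SE 0.54, edgeR adjusted p = 0.0494) but was called in 1 of 8 fits without a library, that without B. The other 5 were called in all 8. With neighbouring letters blocked, 12 of the partners were called, and with limma voom 10. Over all 13817 tested genes, the block called 1204 and limma voom 975, against 356 in the main fit. The remaining parts of the complex, Ldb1 and Tcf3, were named after their values were seen and had log2 fold changes of 0.06 (fold between 0.835 and 1.30 at 95%) and 0.08 (0.904 to 1.23). Erg and Fli1 are also in the pan-endothelial marker list.

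Among partners of the cardiac factors, 19 of 20 could be tested, and edgeR called 1 higher and 0 lower, with a median log2 fold change of 0.17. Over all tested genes, edgeR called 1.42% higher and 1.16% lower. DESeq2 and limma voom called 3 of the partners each, the fit with neighbouring letters blocked 5, and the fit without library B 2. Those fits called 860, 975, 1204 and 457 of all tested genes, in that order. Mef2a, a muscle and heart transcription factor, was at 92.3 ± 8.27 CPM in endocardial cells and 65.2 ± 4.28 CPM in endothelial cells (SD, n = 4 each), a rise of 0.50 (SE 0.10, edgeR adjusted p = 0.0327) that was called only without B among the 8 fits that leave out a library. Its relative Mef2c, at 44.6 ± 14.9 CPM in endocardial cells and 20.9 ± 6.24 CPM in endothelial cells, was not called (log2 fold change 1.08, edgeR adjusted p = 0.0653). Nkx2-5, the cardiac homeobox factor, was too low to test.

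NuRD, the repressor complex that Zfpm proteins recruit, and the other genes with a GATA-type zinc finger showed no call by edgeR without a block. Of 13 NuRD subunits all were tested, with a median log2 fold change of 0.07. By edgeR 0 were called and 1 had an unadjusted p below 0.05, against 14.6% of all tested genes. By DESeq2 1 was called, by limma voom 0 and with neighbouring letters blocked 1. Those fits called 860, 975 and 1204 of all tested genes, in that order. The helicase Chd3 had 123, 146, 110 and 128 CPM in endocardial libraries A, C, E and G, and 186, 174, 157 and 157 CPM in endothelial libraries B, D, F and H, a log2 fold change of -0.41 (edgeR adjusted p = 0.0975). Mta2 had 0.17 (edgeR adjusted p = 0.464). Among 9 other genes with a GATA-type zinc finger, 8 could be tested, 0 were called by edgeR, DESeq2 or limma voom, and 0 had an unadjusted p below 0.05. Their median was 0.08, and Gatad1 had 0.24 (edgeR adjusted p = 0.402).

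Many known endothelial targets of GATA factors rose. Of 19, 18 could be tested and 11 were called higher and 0 lower, with a median log2 fold change of 1.47. Of all tested genes, 1.42% were called higher. Of the 20 pan-endothelial markers, 17 were called higher, with a larger median of 2.25. Nos3, the endothelial nitric oxide synthase, had 26.7, 27.9, 27.3 and 27.7 CPM in endocardial libraries A, C, E and G, and 3.21, 5.26, 4.07 and 3.59 CPM in endothelial libraries B, D, F and H. It rose by 2.78 (SE 0.17), and the endocardial values were nearly equal. Icam2, an endothelial adhesion molecule, rose by 2.57 (SE 0.22), Flt4, a receptor for lymphatic growth factors, by 2.06 (SE 0.13), Eng, a coreceptor for TGF-beta ligands, by 1.73 (SE 0.21), and the sialomucin Cd34 by 1.61 (SE 0.20). The other called targets were Tal1, Pecam1, Itga9, Lyve1, Kdr and Prox1. When each library was left out in turn, Itga9 kept its call in 4 of 8 fits, Kdr and Lyve1 in 2 and Prox1 in 1, and the other 7 called targets in all 8. Without library C, and likewise without E, 7 were called. Those fits called 157 and 135 of all tested genes. Pecam1, Kdr, Icam2 and Eng are pan-endothelial markers as well.

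Targets in red cells and blood progenitors gave 3 calls. Of 24, 23 could be tested, and the median log2 fold change was 0.64. Over all tested genes, 1.42% were called higher and 1.16% lower. In this list 3 were called higher and 0 lower. Those 3 were Hhex, a homeobox factor of blood and endothelial progenitors, at 22.4 ± 4.71 CPM in endocardial cells and 5.58 ± 0.994 CPM in endothelial cells (SD, n = 4 each), and Cd34 and Gfi1b. Without library B, 7 were called, as with neighbouring letters blocked. Those fits called 457 and 1204 of all tested genes. The median rested on single libraries, at 1.78 without B, 0.19 without A, 0.38 without D and 0.35 without H. The embryonic globin Hbb-bh1, named after its values were seen, had 823, 257, 479 and 413 CPM in endocardial libraries A, C, E and G, and 1252, 152, 141 and 239 CPM in endothelial libraries B, D, F and H. Library B was the highest and the groups overlapped.

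Cardiac targets gave no call by edgeR without a block. Of 24, 20 could be tested, with a median log2 fold change of 0.41. By edgeR 0 were called and 7 had an unadjusted p below 0.05, against 2.58% and 14.6% of all tested genes. DESeq2 and limma voom each called 2, edgeR with neighbouring letters blocked called 5, and 1 was called without library B. Those fits called 860, 975, 1204 and 457 of all tested genes, in that order. Tnnt2, cardiac troponin T, had 45.4, 69.0, 82.7 and 58.9 CPM in endocardial libraries A, C, E and G, and 30.4, 39.3, 20.4 and 51.9 CPM in endothelial libraries B, D, F and H, which overlapped (log2 fold change 0.85, edgeR adjusted p = 0.160).

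In the list for endoderm, where Gata4 and Gata6 act, 14 of 22 genes could be tested, 2 were called higher and 0 lower, and the median log2 fold change was 0.07. That median was below 0 without A (-0.11) and without F (-0.16), and 7 were called with neighbouring letters blocked and 5 with limma voom. Both edgeR calls were SoxF factors that endothelium also expresses: Sox7 was at 30.0 ± 8.83 CPM in endocardial cells and 4.09 ± 2.05 CPM in endothelial cells, and Sox17 at 9.81 ± 3.27 CPM in endocardial cells and 2.74 ± 0.547 CPM in endothelial cells (SD, n = 4 each). Over all tested genes, edgeR called 1.42% higher and 1.16% lower. The block called 1204 of the 13817 tested genes and limma voom 975. In surface ectoderm and trophoblast, where Gata2 and Gata3 act, 10 of 16 genes could be tested, 0 were called higher and 1 lower, and the median was -0.19. Tfap2a, an ectodermal factor, had 1.55, 1.88, 3.12 and 3.12 CPM in endocardial libraries A, C, E and G, and 7.76, 9.93, 15.3 and 7.65 CPM in endothelial libraries B, D, F and H. It fell by 2.06 on the log2 scale (SE 0.34, edgeR adjusted p = 0.0120). Without library B 3 of this list were called, without F 2, with DESeq2 3, and with limma voom or with neighbouring letters blocked 4. Of all tested genes, 457 were called without B, 290 without F and 860 with DESeq2. The 11 epithelial markers summed to 575 to 951 CPM in endocardial cells and 735 to 1357 CPM in endothelial cells, with 2 (Cdh1 and Epcam) called lower. Their median log2 fold change was -2.12, and 9 of the 11 were negative. By edgeR 8 had an unadjusted p below 0.05, against 14.6% of all tested genes. For 7 the groups did not overlap, all lower, against 5.33% of all tested genes.

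**Figure D5:**
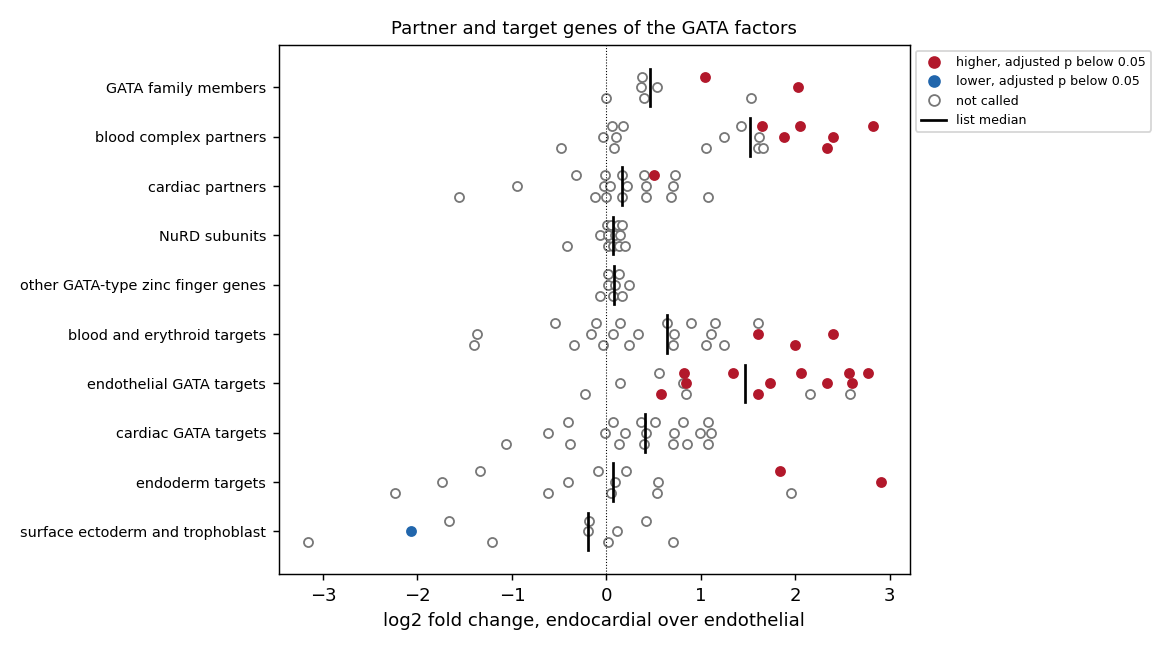
Log2 fold change (x axis), endocardial over endothelial, of every tested gene in the lists of GATA family genes, their partners and their targets (rows), filled red where called higher, filled blue where called lower, open where not called, with a black line at each list's median. The medians of the blood complex partners (1.52) and the endothelial targets (1.47) lie to the right of those of the other lists, and the NuRD subunits lie near 0.

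Apart from the 8 genes, the lists held 148 different genes, of which 126 could be tested, and 20 were called higher and 1 lower, against 1.42% and 1.16% of all tested genes. Several genes stand in more than 1 list, so the lists' counts are not independent.

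The genes whose profile over the 8 libraries was most like that of a GATA or Zfpm gene were found by the root-mean-square difference of centred log2 CPM, as a description. Gata2 was nearest to Acer2 (0.28), Nfatc1 (0.31) and Adra2a (0.32). Nfatc1, the calcium-regulated factor that marks endocardium, had 46.1, 44.6, 48.7 and 56.0 CPM in endocardial libraries A, C, E and G, and 12.2, 12.3, 7.82 and 13.6 CPM in endothelial libraries B, D, F and H. Like Gata2 it was highest in G among endocardial and in H among endothelial libraries. The sum over pan-endothelial markers was highest in the same libraries, at 2122 CPM in G and 942 CPM in H. Zfpm1 was nearest to Elk3 (0.08), Cdkl1 (0.12) and Tspan12 (0.13), and Gata1 to Cited4 (0.14), Nfe2 (0.23) and P2rx1 (0.26). Nfe2, a factor of red cells and platelets, had 16.4, 8.27, 12.6 and 5.86 CPM in endocardial libraries A, C, E and G, and 10.6, 2.19, 3.76 and 1.20 CPM in endothelial libraries B, D, F and H, with A and B high and G and H low as for Gata1.

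Gata4 was nearest to Pde4b (0.10), Asb4 (0.15) and Vim (0.15), with Gata6 the closest of the other 7 genes at 0.18. Gata6 was nearest to Rgl1 (0.09), Capn2 (0.11) and Ppic (0.12). Gata5 was nearest to Pdlim1 (0.14), Pck2 (0.19) and Wwtr1 (0.20). Gata3 was nearest to Rdh11 (0.16), Zfat (0.16) and Nr1d1 (0.17), and Zfpm2 to Fbn1 (0.22), Cmklr1 (0.23) and Soat2 (0.27).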

How the data were processed

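The authors deposited estimated counts per gene symbol for 8 libraries, made from total RNA with a stranded mRNA kit, per the labels. Salmon, DESeq2 and build mm10 are named per the submitters' processing notes; the sources used here give no versions, transcript set, strand setting or filters. The deposited estimated counts are whole numbers, so rounding changed 0 values. Totals ran from 6677667 to 11369363, and 3 counts equal 0.267 to 0.438 CPM, which covers counting error only.

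Low genes were removed by filterByExpr (count of 10, total of 15), TMM factors were computed, and the model was fitted in edgeR 4.0.16 (R 4.3.3) with robust quasi-likelihood, all 8 libraries, no block, endocardial minus endothelial. Benjamini-Hochberg adjustment ran over 13817 genes. The common biological coefficient of variation was 0.239, and the code was tested on simulated data. Subgroup means used a prior count of 2. All 8 genes passed the filter. Symbols were matched to GENCODE M21 (GRCm38, the same assembly as mm10), which held 32697 of 34536. Per-kilobase levels use its transcript lengths.

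Alternatives were DESeq2 1.42.0, limma 3.58.1 voom with sample quality weights, other scalings and filters, no robust estimation, a block of neighbouring letters, an adjusted p below 0.01 and fits without each library.

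The genes and all lists were chosen with earlier results of these data known. Named genes were all 8, up to 6 called genes of each list by smallest p (the 2 with the smallest p where none was called) and, for each of the 8, the 3 genes of nearest profile. The labels pair no libraries.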

Additional observations from a re-analysis of the deposited data

How the results depend on the processing

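Gata2 and Zfpm1 kept their calls, and Gata4, Gata5, Gata6 and Zfpm2 stayed uncalled and above 0, in all 16 alternative fits. At a threshold of 0.01, 1 of the 8 genes was called (Gata2). The log2 fold change of Gata1 passed with DESeq2 (1.55), limma voom (1.93) and the block of neighbouring letters (1.70), and was 1.28 to 2.26 when a library was left out, passing without B (2.26). That of Gata3 turned positive with voom (0.36), the block (0.00052) and no filter (0.0062), and was -0.17 to 0.18 when a library was left out, positive without A (0.09), E (0.03), F (0.04) and H (0.18); none passed. The count over all genes was 860 with DESeq2 (330 higher and 530 lower), 975 with voom (410 and 565), 1204 with the block (505 and 699), 104 at the threshold of 0.01, and 135 to 457 without a library (189 without A, 157 without C, 135 without E, 153 without G and 138 without D), against 356 (196 and 160). Of the 126 list genes, 21 were called, against 32 with DESeq2, 37 with voom, 48 with the block and 13 at 0.01. Per coding kilobase Zfpm1 went to place 3 in endocardial and in endothelial cells, and Gata2 stood above Gata1 in both. The blood-minus-cardiac difference kept its sign under all 10 alternatives. The causes were not tested. The labels share no replicate number between groups. The block of neighbouring letters was chosen from the letters, and libraries of neighbouring letters also deviated together, at correlations of 0.324 to 0.611. On the log2 scale the Gata1 and Zfpm2 intervals are the widest of the 8.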
